A study of Glycine max with 42 samples.

Results

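Lipoxygenases of soybean (Glycine max) whose gene IDs lie on chromosomes 7, 13 and 15 were followed in leaves whose seed sink had been limited, and in leaves of plants with their normal sink. The set was named gene by gene: Glyma.13G347500, Glyma.13G347600 and Glyma.13G347700 on chromosome 13, Glyma.15G026300, Glyma.15G026400 and Glyma.15G026500 on chromosome 15, and Glyma.07G006700, Glyma.07G006900 and Glyma.07G007000 on chromosome 7. Of these 9 genes, 5 had a row in both tables, out of 39557 genes listed in either. Glyma.13G347500, Glyma.13G347600, Glyma.15G026300 and Glyma.07G006700 had a row in neither table used here, so nothing is reported of their levels. The 5 genes with rows all passed the filter on low values in both tables.

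The mechanical limitation was depodding, the removal of pods, in the cultivar Williams 82. Depodded and control leaves were labelled 45, 54, 64 and 76 days after planting, and an initial group was taken at day 38, at the R2 flowering stage. The genetic limitation was sterility in the line T295H, whose allele the labels do not name. Sterile and control leaves were taken at days 35 and 63, and an initial group at day 28, also at R2. The initial groups carry no label of treatment or fertility. Each of the 14 groups held 3 RNA sequencing libraries from trifoliate leaves, and the labels do not say how many plants a library holds.

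Lipoxygenases add molecular oxygen to polyunsaturated fatty acids such as linoleic and linolenic acid. The hydroperoxides that result feed several branches, among them the synthesis of jasmonates, which signal wounding and senescence, and of volatile aldehydes. Soybean is known for abundant seed isozymes, and for vegetative lipoxygenases of the leaf. These leaf forms are known to accumulate in the paraveinal mesophyll when pods are removed and are counted among the vegetative storage proteins.

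No table used here gives a name to these IDs. None of the 39557 IDs matched the RefSeq table (assembly Glycine_max_v4.0), although that table lists lipoxygenase names on all 3 chromosomes. On chromosome 13 it holds LOX2, LOX1.1, LOXB1 and LOX7, in this order. The selection called Glyma.13G347600 LOX1, Glyma.13G347700 LOX2 and Glyma.15G026300 LOX3. By ID number it thus places LOX1 before LOX2, whereas the RefSeq order places LOX2 before LOX1.1, so the name LOX2 for Glyma.13G347700 is in doubt. These names could not be checked, so genes are called by their IDs here and no isozyme role is given to them. Lists of jasmonate pathway genes and of leaf, seed, nodule and flower markers, fixed by product name, could not be applied for the same reason. Genes of a lipoxygenase family can share reads with near-identical copies, and the sources used here do not say how such reads were counted, so each value is uncertain in that respect.

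Library totals ran from 6663477 to 13166094 counts in Williams 82 and from 5471456 to 11877733 in T295H. Values below are normalised counts as deposited, with mean ± SD over n = 3 libraries. Overlap of libraries was not counted over all genes, so a lack of overlap is a description and was not tested. Log2 changes are on the log2(normalised count + 1) scale, which understates changes of low genes, and adjusted p-values are from limma over all genes tested, called where under 0.05. Each SE pools a gene's spread over all groups of its table, so it also reflects groups that are not compared. Levels of different genes are not compared, since no gene lengths could be matched. In bulk leaf samples, fewer cells of a type and less RNA per cell cannot be told apart. Titles and time labels disagree for late depodded leaves: number 5 in a title goes with day 64 in depodded leaves but with day 76 in controls, and number 4 with day 76 in depodded leaves but with day 64 in controls. Late comparisons are therefore given by the label and also by the title number.

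Control leaves of Williams 82 had far lower levels of 4 of the 5 genes on the last day than initial leaves. Compared with initial leaves of day 38, controls of day 76 were lower for 4 of 5 genes, where 23.7% of all genes tested were lower. The median log2 change was -3.56 over the 5 genes and 0.04 over all genes. Glyma.07G006900 stood at 34.7, 942 and 6.74 normalised counts in the controls of day 76, against 12473.5, 13480 and 17810 in initial leaves. Every late control library was below every initial library, and control replicate 2 stood far above the other two. The mean was 44.5-fold lower (log2 change -7.82, SE 0.95, adjusted p 7.1e-07), or 705-fold lower without that replicate. The latter value rests on the 40 and 8 counts of control replicates 1 and 3. Glyma.15G026500 averaged 952 ± 676 in these controls and 9115 ± 3755 in initial leaves, 9.58-fold lower (log2 change -3.56, SE 0.53, adjusted p 1e-05). Glyma.13G347700 averaged 1051 ± 703 in late controls and 4587 ± 1608 in initial leaves, 4.37-fold lower (log2 change -2.44, SE 0.55, adjusted p 0.001).

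Glyma.15G026400 was a low gene in Williams 82. Its late controls held 4, 12 and 0 counts, or 3.47, 9.63 and 0 normalised counts, against 95.2, 26 and 86.5 in initial leaves. The ratio of means was 0.0631 with a 95% counting interval of 0.0261 to 0.132, and the gene was called lower (log2 change -4.08, SE 1.02, adjusted p 0.0024). The ratio was 0.025 without control replicate 2 and 0.0946 without control replicate 3. Glyma.07G007000 did not follow the other 4 genes. It stood at 4910, 4630 and 2057 in controls of day 76, against 1238, 4296 and 5224 in initial leaves, and the groups overlapped (log2 change 0.25, SE 0.43, adjusted p 0.67). In between, its control mean was 7499 ± 1659 at day 45, 9120 ± 2176 at day 54 and 10734 ± 2556 at day 64. Over the same days the control mean of Glyma.07G006900 was 13119 ± 390, 8569 ± 2078 and 4905 ± 3860, so the means of these neighbouring genes ran in opposite directions over these days, which was not tested.

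**Figure D1:**
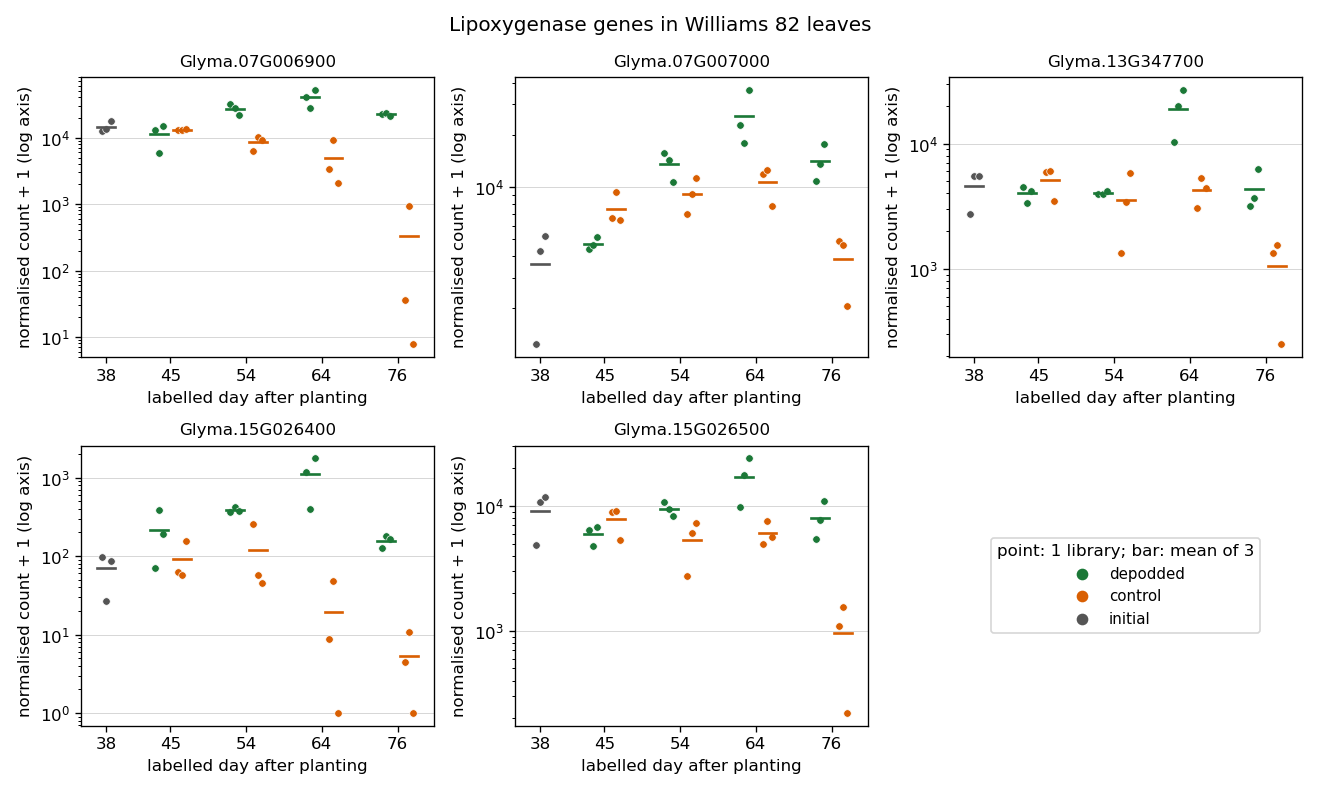
Normalised count plus 1 (log axis) of each of the 5 genes in the 27 Williams 82 libraries, by labelled day after planting, with depodded left of control at each day. Points are libraries and bars are means of 3; days are set at even steps, not to scale. Depodded libraries labelled day 64 and day 76 lie above the controls of the same label for every gene, and at day 76 the controls of Glyma.07G006900 spread from 6.74 to 942.

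Depodded leaves were set against same-day controls, first at the early samplings. At day 45, 0 of the 5 genes passed the limma threshold, where 0.0103% of all genes did. An unadjusted limma p under 0.05 was found for 0 of the 5, and for 3046 of all 29208 genes tested. EdgeR and DESeq2 also called 0. Log2 changes ran from -0.65 for Glyma.07G007000 to 1.07 for Glyma.15G026400. Glyma.07G007000 stood at 4420, 4614 and 5144 in depodded leaves, against 6624, 9412 and 6460 in controls. All 3 depodded libraries lay below the controls, but the change did not pass (SE 0.43, adjusted p 0.62). Glyma.07G006900 stood at 12766, 5838 and 14859 in depodded leaves, against 12790, 13017 and 13550 in controls, and depodded replicate 2 was the lowest of the 6. Glyma.15G026400 stood at 68.8, 383 and 189 in depodded leaves, against 61, 55.6 and 156 in controls, and its ratio of 2.35 was 1.42 without depodded replicate 2 and 3.66 without control replicate 3. Its libraries overlapped, as did those of Glyma.13G347700 and Glyma.15G026500.

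At day 54, 0 of the 5 genes were called, where 0.88% of all genes were. An unadjusted limma p under 0.05 was found for 1 of the 5, and for 4464 of all 29208 genes tested. EdgeR and DESeq2 called 0 here too. All 5 log2 changes were positive, from 0.43 to 2.15. Glyma.07G006900 stood at 31765, 28264 and 21466 in depodded leaves, against 6230, 10202 and 9276 in controls. The groups did not overlap and the means differed 3.17-fold (log2 change 1.68, SE 0.95, adjusted p 0.41). This SE is not the spread at day 54 alone. It pools all Williams 82 groups, among them controls of day 76, which ran from 6.74 to 942. The gene was called when only these 6 libraries were fitted (adjusted p 0.013, within a range of 0.013 to 0.62 over its alternatives). Glyma.15G026400 stood at 363, 427 and 371 in depodded leaves, against 257, 55.6 and 44.4 in controls, again with no overlap (log2 change 2.15, SE 1.02, adjusted p 0.32). Its ratio of 3.25 was 7.74 without control replicate 1. Glyma.15G026500 averaged 9495 ± 1180 in depodded leaves and 5386 ± 2357 in controls, without overlap (log2 change 0.93, SE 0.53, adjusted p 0.42). Glyma.13G347700 averaged 4031 ± 109 in depodded leaves and 3522 ± 2241 in controls, and there the libraries overlapped.

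In the depodded libraries labelled day 64, all 5 genes were higher than in controls of day 64, where 19.1% of all genes were higher. The median log2 change was 2.08 over the 5 genes and 0.01 over all genes tested. Glyma.13G347700 stood at 10339, 19861 and 26935 in depodded leaves, against 3068, 5335 and 4436 in controls. The lowest depodded library was above the highest control, and the means differed 4.45-fold (log2 change 2.08, SE 0.55, adjusted p 0.0053). Glyma.15G026400 stood at 1166, 398 and 1767 in depodded leaves, against 7.7, 47.6 and 0 in controls. These controls held 56 counts in all, so the 60.3-fold difference has a 95% counting interval of 41.6 to 90.9 (log2 change 6.96, SE 1.02, adjusted p 2.1e-05). It was 288-fold without control replicate 2.

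Glyma.07G006900 averaged 40197 ± 12396 in the depodded libraries labelled day 64 and 4905 ± 3860 in controls (a log2 change of 3.28, SE 0.95, adjusted p 0.0098). The ratio of 8.19 was 14.9 without control replicate 2. Glyma.07G007000 averaged 25722 ± 9572 in these depodded libraries and 10734 ± 2556 in controls, without overlap (log2 change 1.23, SE 0.43, adjusted p 0.028), and Glyma.15G026500 averaged 17155 ± 7175 in depodded leaves and 6059 ± 1373 in controls, also without overlap (log2 change 1.43, SE 0.53, adjusted p 0.04). These 3 calls did not hold when some single libraries were left out, which leaves 2 libraries in a group, while the changes kept their direction. Without control replicate 3 all 3 were lost and 2 of the 5 genes were called, with log2 changes of 2.81 for Glyma.07G006900, 1.39 for Glyma.15G026500 and 1.01 for Glyma.07G007000. The call of Glyma.07G007000 was also lost without depodded replicate 1 (log2 change 1.28) or 3 (0.94). That of Glyma.15G026500 was lost without control replicate 1 (1.29), depodded replicate 2 (1.37) or depodded replicate 3 (1.14).

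By the title number, the controls of day 64 belong with the depodded libraries labelled day 76, and then 1 of 5 genes was higher, where 7.08% of all genes were. That gene was Glyma.15G026400, at 126, 177 and 165 in these depodded leaves, against 7.7, 47.6 and 0 in controls of day 64 (log2 change 4.37, SE 1.02, adjusted p 0.0072). The ratio of 8.48 was 40.6 without control replicate 2 and 5.65 without control replicate 3. Glyma.07G006900 stood at 22611.5, 23115 and 21262 in depodded leaves, against 3317, 9307 and 2093 in controls, with no overlap, but did not pass (log2 change 2.48, SE 0.95, adjusted p 0.086). Glyma.13G347700 averaged 4369 ± 1614 in depodded leaves and 4280 ± 1142 in controls, with overlap (log2 change 0.01, SE 0.55, adjusted p 1). The groups of Glyma.15G026500 and Glyma.07G007000 overlapped, with log2 changes of 0.38 and 0.39. The calls of the other 4 genes at this sampling thus depend on which label is used.

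In the last comparison all 5 genes were higher under either label, and both versions share the controls of day 76. Set against controls of day 76, the depodded libraries labelled day 76 were higher for 5 of 5 genes, where 24.2% of all genes were higher. The median log2 change was 3.43 over the 5 genes and 0.05 over all genes. The depodded libraries labelled day 64, which carry the same title number as those controls, were also higher for 5 of 5, where 15.8% of all genes were, with a median of 4.48. Glyma.07G006900 stood at 22611.5, 23115 and 21262 in depodded leaves by the label, against 34.7, 942 and 6.74 in controls. The ratio of means was 68.1 (log2 change 8.45, SE 0.95, adjusted p 4.4e-07), and 1079 without control replicate 2. By the title number it was 123, and 1942 without that replicate. Both ratios without it rest on the 40 and 8 counts of control replicates 1 and 3. Each other gene also had every depodded library above every control.

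Glyma.15G026500 averaged 8051 ± 2775 in the depodded libraries labelled day 76 and 952 ± 676 in controls, 8.46-fold higher (log2 change 3.43, SE 0.53, adjusted p 2.2e-05), and was 18-fold higher by the title number. Glyma.13G347700 averaged 4369 ± 1614 in these depodded libraries and 1051 ± 703 in controls, 4.16-fold higher (log2 change 2.38, SE 0.55, adjusted p 0.0013), and was 18.1-fold higher by the title number. Glyma.07G007000 stood at 10882, 13580 and 17753 in depodded leaves, against 4910, 4630 and 2057 in controls (a log2 change of 1.94, SE 0.43, adjusted p 0.00081). Glyma.15G026400 stood at 126, 177 and 165 in depodded leaves, against 3.47, 9.63 and 0 in controls of day 76 (log2 change 5.43, SE 1.02, adjusted p 0.00018). The 16 counts of these controls give its 35.8-fold difference a 95% counting interval of 17.9 to 83.8, and it was 90.1-fold without control replicate 2. By the title number this gene differed 254-fold, with an interval of 129 to 590, and 641-fold without control replicate 2.

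**Figure D2:**
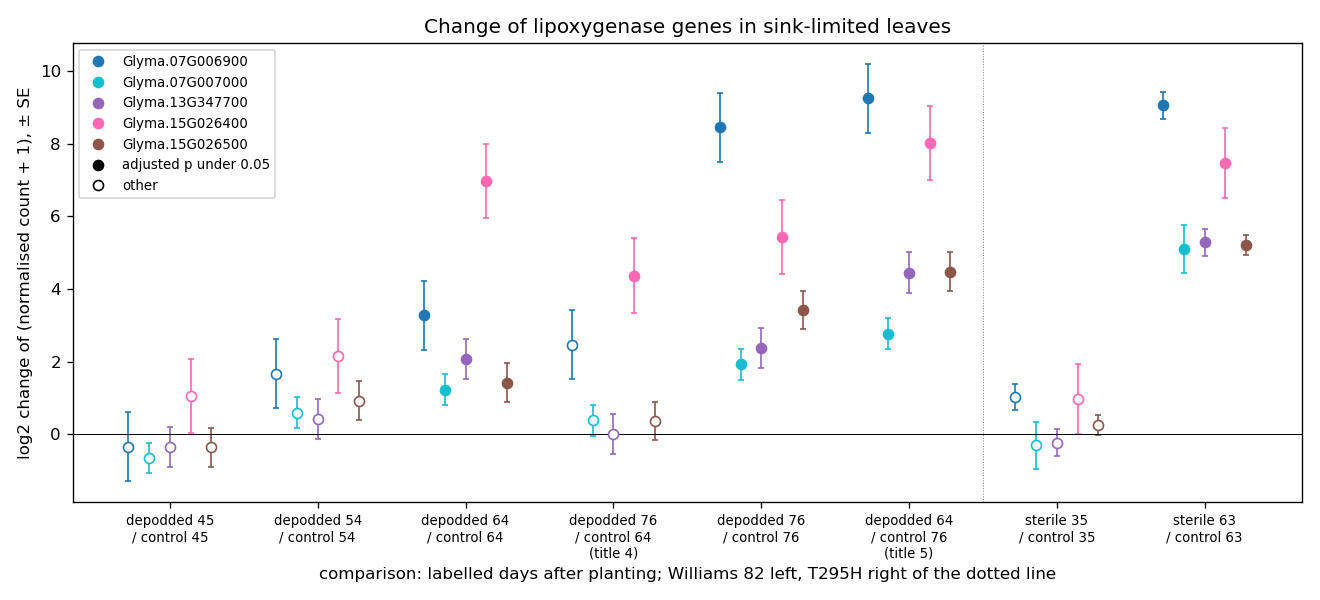
Log2 change of each gene with its standard error (limma), in depodded against control leaves (left of the dotted line) and sterile against control leaves (right of it). Filled points have an adjusted p under 0.05; late depodded groups are shown by the label and by the title number. The filled points are all above 0, with 5 of 5 filled in the last comparison of each line and 1 of 5 at title number 4.

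Depodded leaves were also compared with the initial leaves of day 38, which carry no treatment label and are shared with the comparison of late controls above. In the depodded libraries labelled day 64, 3 of 5 genes were higher, where 14.7% of all genes were higher. These were Glyma.07G007000 (7.17-fold, log2 change 3.02, SE 0.43, adjusted p 1.6e-05), Glyma.15G026400 (16-fold, log2 change 3.94, SE 1.02, adjusted p 0.0051) and Glyma.13G347700 (4.15-fold, log2 change 2.02, SE 0.55, adjusted p 0.0076). Glyma.07G006900 had its lowest library at 27536 in that depodded group, against a highest of 17810 in initial leaves, but did not pass (log2 change 1.43, SE 0.95, adjusted p 0.27). In those labelled day 76, 1 of 5 was higher, where 20.2% of all genes were. It was Glyma.07G007000, at 10882, 13580 and 17753 in depodded leaves, against 1238, 4296 and 5224 in initial leaves (log2 change 2.19, SE 0.43, adjusted p 0.00031). Glyma.13G347700 averaged 4369 ± 1614 in that depodded group and 4587 ± 1608 in initial leaves, and Glyma.15G026500 averaged 8051 ± 2775 in depodded and 9115 ± 3755 in initial leaves, with overlapping libraries for both genes.

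Over the 9 groups of Williams 82, the depodded libraries labelled day 64 had the highest mean of each of the 5 genes. Controls of day 76 had the lowest mean of each gene except Glyma.07G007000, which was lowest in initial leaves. Most neighbours in the order of means overlapped in their libraries. For Glyma.07G006900 the 3 depodded groups from day 54 on stood above all others, with 22329 ± 958 in the lowest of them and 14588 ± 2835 in initial leaves next. That step and the last one, to controls of day 76, were the only ones in its order where neighbours did not overlap. For Glyma.15G026400 no neighbouring groups were separate, and all 4 depodded groups stood above all control and initial groups by their means. For Glyma.15G026500 the controls of day 76 were separate from the group above them. For Glyma.13G347700 the depodded libraries labelled day 64 were separate from all others, at 19045 ± 8328 against 5147 ± 1420 in controls of day 45, the next group. For Glyma.07G007000 these depodded libraries were separate as well, and so were controls of day 45 from depodded leaves of day 45.

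In T295H the same 5 genes were set against their own controls under the genetic limitation. At day 35, 0 of 5 genes passed with limma, where 0.177% of all genes did. An unadjusted limma p under 0.05 was found for 1 of the 5, and for 3792 of all 29370 genes tested. EdgeR and DESeq2 called 0. The one with the low unadjusted p was Glyma.07G006900, at 23391, 27481 and 23758 in sterile leaves, against 18264, 8586 and 11538 in controls. Its groups did not overlap and the means differed 1.94-fold (log2 change 1.03, SE 0.36, adjusted p 0.25). The other 4 genes had log2 changes from -0.30 to 0.97, and their groups overlapped.

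At day 63 all 5 genes were higher in sterile leaves, where 26.6% of all genes were higher. The median log2 change was 5.28 over the 5 genes and 0.02 over all genes tested, and no library of a sterile group reached down to the controls. Glyma.07G006900 stood at 23037, 13587 and 21809 in sterile leaves, against 32.5, 20.2 and 63.2 in controls. The means differed 504-fold, with a 95% counting interval of 395 to 655 (log2 change 9.05, SE 0.36, adjusted p 1.6e-10). Glyma.07G007000 stood at 21529, 12508 and 29005 in sterile leaves, against 611, 335 and 939 in controls, a 33.4-fold difference (log2 change 5.1, SE 0.66, adjusted p 1.5e-05).

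Glyma.13G347700 stood at 16359, 10135 and 12561 in sterile leaves of day 63, against 302, 202 and 570 in controls (36.3-fold, log2 change 5.28, SE 0.37, adjusted p 3.7e-08). Glyma.15G026500 stood at 20760, 13516 and 15098 in sterile leaves, against 325, 425 and 602 in controls (36.5-fold, log2 change 5.21, SE 0.28, adjusted p 2.5e-09). Glyma.15G026400 was more uneven, at 562, 1358 and 4175 in sterile leaves, against 4.06, 6.72 and 14 in controls (a log2 change of 7.46, SE 0.96, adjusted p 1.6e-05). Its controls held 28 counts in all, and its 246-fold difference has a counting interval of 146 to 449. Without sterile replicate 3 it was 116-fold, and without control replicate 3 it was 377-fold.

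**Figure D3:**
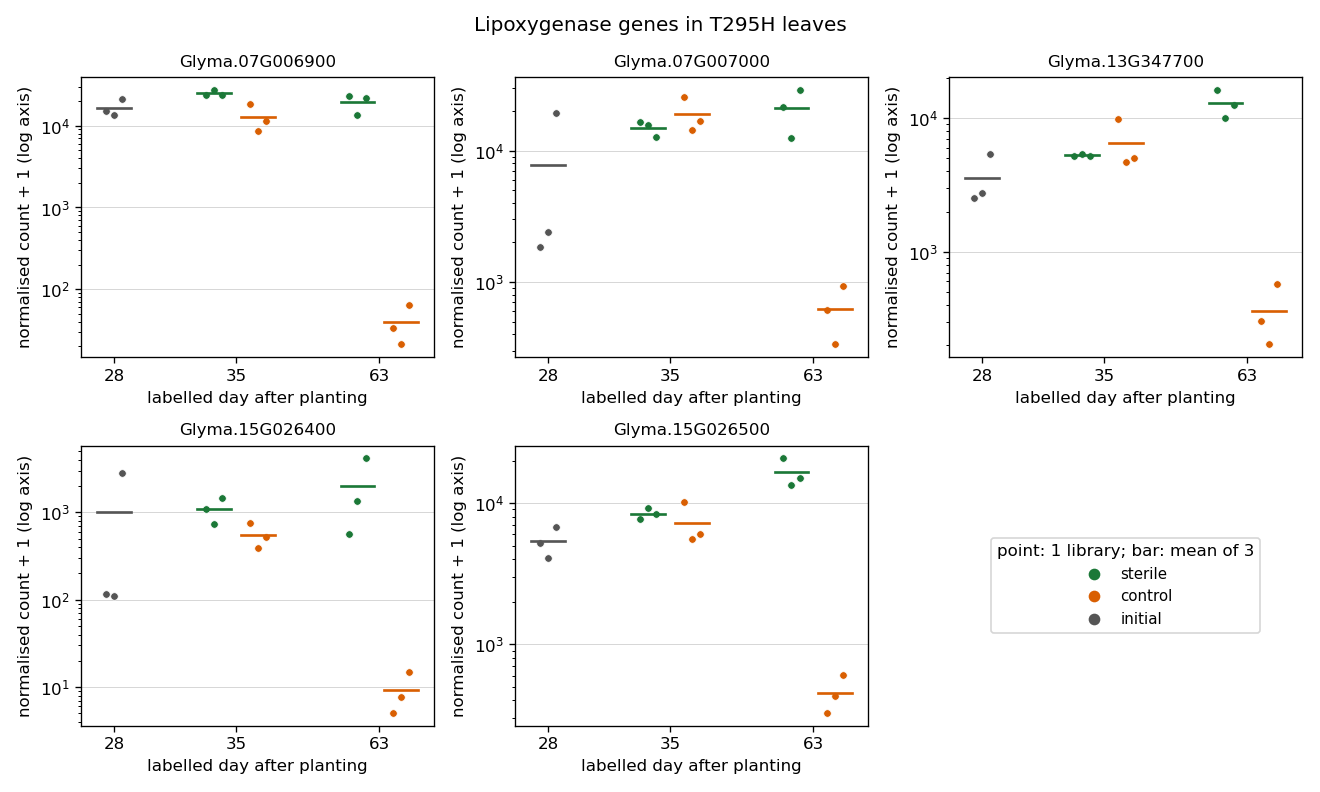
Normalised count plus 1 (log axis) of the 5 genes in the 15 T295H libraries, by labelled day, with sterile left of control. Points are libraries and bars are means of 3; days are set at even steps, not to scale. At day 63 the sterile libraries of Glyma.07G006900 sit between 13587 and 23037, and the controls between 20.2 and 63.2.

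Against initial leaves of day 28, T295H controls of day 63 were lower for 5 of 5 genes, where 32.1% of all genes were lower, with a median log2 change of -3.58 over the 5 genes and 0.02 over all. Glyma.07G006900 was 430-fold lower (log2 change -8.84, SE 0.36, adjusted p 3.8e-11), with initial libraries at 15176, 13520 and 21166. Glyma.13G347700 was 9.89-fold lower (log2 change -3.35, SE 0.37) and Glyma.15G026500 11.9-fold lower (log2 change -3.58, SE 0.28). Initial replicate 3 stood apart for the other 2 genes. It held 2823 normalised counts of Glyma.15G026400 and 19201 of Glyma.07G007000, against 117 and 1856 in replicate 1 and 109 and 2395 in replicate 2. Both genes were called lower in controls (a log2 change of -5.31, SE 0.96, adjusted p 0.00019, and log2 change -2.93, SE 0.66, adjusted p 0.0011). The ratio for Glyma.07G007000 was 0.0804, or 0.296 without initial replicate 3. That for Glyma.15G026400 was 0.00814, or 0.0732 without initial replicate 3 and 0.00531 without control replicate 3. Initial replicate 2 was unusual as a whole library. It had the lowest total in T295H, 5471456 counts, with 41.3% of them in its 10 most abundant genes.

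Sterile leaves of day 63 were higher than initial leaves for 3 of 5 genes, where 16.6% of all genes were higher. Glyma.13G347700 averaged 13018 ± 3137 in sterile and 3542 ± 1583 in initial leaves (log2 change 1.94, SE 0.37, adjusted p 0.0011), and Glyma.15G026500 averaged 16458 ± 3809 in sterile and 5360 ± 1355 in initial leaves (log2 change 1.62, SE 0.28, adjusted p 0.00048). Glyma.07G007000 averaged 21014 ± 8261 in sterile and 7818 ± 9862 in initial leaves with overlapping libraries (log2 change 2.17, SE 0.66, adjusted p 0.019). Its call was lost without any 1 of initial replicates 1 and 2 and sterile replicates 1 and 3, with edgeR, with DESeq2 and when only these 6 libraries were fitted. Its ratio was 2.69, or 9.89 without initial replicate 3. In initial replicate 2 the 10 most abundant genes of the library held 41.3% of counts. Glyma.07G006900 averaged 19478 ± 5138 in sterile and 16621 ± 4022 in initial leaves (adjusted p 0.68). Glyma.15G026400 averaged 2032 ± 1898 in sterile and 1016 ± 1565 in initial leaves (log2 change 2.15, SE 0.96, adjusted p 0.098). Its ratio of 2 was 0.945 without sterile replicate 3 and 18 without initial replicate 3, and without that initial library the gene was called higher (adjusted p 0.00023, within a range of 0.00023 to 0.51 over its alternatives).

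Over the 5 T295H groups, controls of day 63 had the lowest mean of every gene, and their libraries were below those of the next group up. How many of all genes separate in this way was not counted. Sterile leaves of day 63 had the highest mean of each gene except Glyma.07G006900. That gene was highest in sterile leaves of day 35, at 24877 ± 2263, separate from sterile leaves of day 63. Sterile leaves of day 63 were separate from the next group for Glyma.13G347700 and Glyma.15G026500. All other neighbours in these orders overlapped.

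The effect of each limitation was more positive on a late than on an early day, by a test of the difference itself. For depodding the days in between were not part of this test, so a steady trend was not tested. For depodding, the effect at the label of day 76 exceeded that at day 45 in 5 of 5 genes, where 17% of all genes had a more positive effect, with differences from 2.58 (Glyma.07G007000, SE 0.6, adjusted p 0.0025) to 8.79 (Glyma.07G006900, SE 1.34, adjusted p 6.4e-05) on the log2 scale. By the title number it was 5 of 5, where 10.6% of all genes were more positive, with differences from 3.42 to 9.59. The difference of 4.36 for Glyma.15G026400 (SE 1.44, adjusted p 0.024) lost its call without control replicate 3 of day 45, control replicate 3 of day 76 or depodded replicate 1 of day 45. For sterility, the effect at day 63 exceeded that at day 35 in 5 of 5 genes, where 15.1% of all genes did, with differences from 4.94 (Glyma.15G026500, SE 0.4, adjusted p 6.9e-07) to 8.03 (Glyma.07G006900, SE 0.51, adjusted p 8.7e-08).

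The neighbouring chromosome 7 genes were set against each other within each library, a ratio in which the library's scaling cancels. It was chosen after values were seen and was not tested. The ratio of Glyma.07G007000 to Glyma.07G006900 was 142, 4.91 and 305 in Williams 82 controls of day 76, against 0.0993, 0.319 and 0.293 in initial leaves. Glyma.07G006900 held 40, 1174 and 8 counts in these controls, so the sizes of the ratios 142 and 305 are uncertain. In the depodded libraries the ratio was 0.559, 0.653 and 0.696 where labelled day 64, and 0.481, 0.587 and 0.835 where labelled day 76. In T295H leaves of day 63 it was 0.935, 0.921 and 1.33 in sterile leaves, against 18.8, 16.6 and 14.9 in controls. At day 35 it was 0.704, 0.571 and 0.532 in sterile leaves, against 1.39, 1.68 and 1.45 in controls. Sterile and control leaves thus did not overlap in this ratio at day 35. Nor did they in Glyma.07G006900 alone, with a lowest sterile library of 23391 and a highest control of 18264. Lack of overlap is a different measure from the limma threshold, which no gene of the set passed on that day. At day 54 the depodded libraries were at 0.498, 0.509 and 0.501, against 1.12, 0.892 and 1.22 in controls, again without overlap. At day 45 the groups overlapped, with 0.346, 0.79 and 0.346 in depodded leaves, against 0.518, 0.723 and 0.477 in controls. Since gene length differs between genes but not between libraries, the ratio can be compared between groups but not read as relative abundance.

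**Figure D4:**
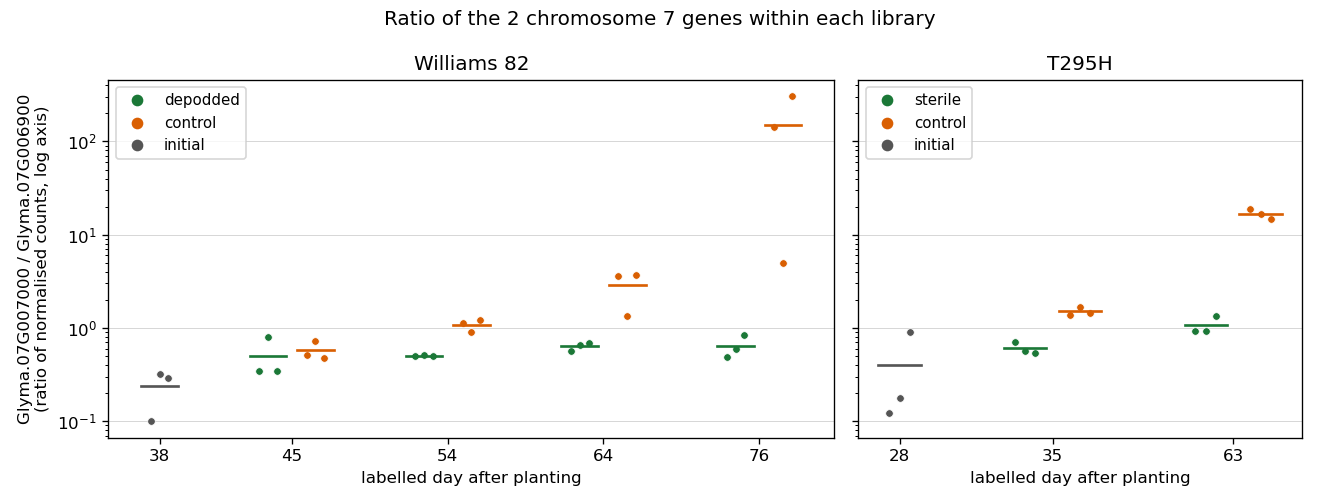
Ratio of normalised counts of Glyma.07G007000 to Glyma.07G006900 (log axis) in each library, by labelled day, with the sink-limited group left of control. Points are libraries and bars are means of 3; days are set at even steps, not to scale. Control libraries of the last day are at 4.91 to 305 in Williams 82 and 14.9 to 18.8 in T295H, above the sink-limited libraries of the same label.

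Together the 5 genes held a small but changing share of each library. They took 1.08 ± 0.271% of counts in the depodded libraries labelled day 64 and 0.543 ± 0.0923% in those labelled day 76, against 0.3 ± 0.0857% in controls of day 64 and 0.0766 ± 0.0405% in controls of day 76. In T295H leaves of day 63 the share was 0.94 ± 0.231% in sterile leaves, against 0.0167 ± 0.00711% in controls. Initial leaves were at 0.283 ± 0.106% in Williams 82 and 0.287 ± 0.202% in T295H.

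Across the libraries of a table the 5 genes varied together to a different degree. Pearson's r of log2 values between pairs of them ran from 0.52 to 0.934 over 27 Williams 82 libraries (10 pairs, median 0.675) and from 0.87 to 0.985 over 15 T295H libraries (median 0.928). The highest value in each line was that of Glyma.13G347700 with Glyma.15G026500. The libraries share groups and scaling, so these values are descriptions. The ratio of Glyma.15G026500 to Glyma.13G347700 within libraries stayed between 0.804 and 2.7 in all 27 Williams 82 libraries and between 1.03 and 2.11 in all 15 T295H libraries.

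The genes listed next to the set by ID number, up to 5 rows on each side of each cluster, did not share its direction as a group in the last comparison of either line. Of 26 such genes tested in Williams 82, 4 were higher and 9 lower in the depodded libraries labelled day 76, where 24.2% of all genes were higher and 22.2% lower, with a median log2 change of 0.00. Against controls of day 64, 4 were higher and 3 lower by the label, where 19.1% and 16.7% of all genes were. By the title number 3 were higher and 0 lower against those controls, where 7.08% and 5.93% were. Against controls of day 76 by the title number, 4 were higher and 3 lower, where 15.8% and 12.5% were. Of 25 in T295H, 5 were higher and 9 lower in sterile leaves of day 63, where 26.6% of all genes were higher and 23.6% lower, with a median of -0.22. One of them, Glyma.13G347800, the row after Glyma.13G347700, was also the gene outside the set with the pattern most like Glyma.07G006900 in T295H, with r 0.994 over 15 libraries. It averaged 4310 ± 2145 in sterile leaves of day 63 and 6.66 ± 3.62 in controls (a log2 change of 9.14, SE 0.42, adjusted p 5.1e-10). In Williams 82 its log2 change was 5.01 in the depodded libraries labelled day 76 (SE 0.76, adjusted p 1.7e-05). The files give it no name, so whether it is a lipoxygenase as well could not be checked.

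By the same measure, with the 5 genes of the set left out of the ranking, Glyma.08G350800 (r 0.987) and Glyma.06G324300 (r 0.969) were most like Glyma.07G006900 over the 27 Williams 82 libraries. For Glyma.13G347700 they were Glyma.15G241300 (r 0.910) and Glyma.04G255400 (r 0.898), and for Glyma.15G026500 Glyma.04G255400 (r 0.956) and Glyma.06G324300 (r 0.955). In T295H, Glyma.14G085600 (r 0.992) came second for Glyma.07G006900. Outside the set, Glyma.11G035900 was first for Glyma.13G347700 (r 0.980) and for Glyma.15G026500 (r 0.989), followed by Glyma.08G276400 (r 0.973) for Glyma.13G347700 and Glyma.12G217400 (r 0.981) for Glyma.15G026500. Glyma.13G347700 and Glyma.15G026500 had a higher r with each other, 0.934 in Williams 82 and 0.985 in T295H, than Glyma.13G347700 had with any gene outside the set. The reverse did not hold. Glyma.15G026500 had a higher r with Glyma.04G255400 (0.956) in Williams 82 and with Glyma.11G035900 (0.989) in T295H than with Glyma.13G347700. Each gene named here was picked among the highest of 29203 genes in Williams 82 or 29365 in T295H, so the size of r is fixed in part by the choice.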

How the data were processed

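The authors deposited 1 table of normalised signal for each line. From the values, a column's smallest increment divides all its entries, as with counts scaled by 1 size factor. Counts recovered this way were whole to within 0.01 in 100% of cases, and 98.9% in Williams 82 and 99% in T295H of those above 0 were even. Single counts may thus not be independent: counting intervals (95%, exact Clopper-Pearson) use pairs of counts and cover counting error only. Bowtie2 and DESeq2 were used, per the submitters' processing notes, which give no versions or roles. The sources used here do not give genome build, annotation, counting tool or strand.

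The version ending of T295H IDs was removed. The test took genes averaging 10 or more over their table, 29208 in Williams 82 and 29370 in T295H, with limma 3.58.1 (R 4.3.3; lmFit, contrasts.fit, eBayes with a trend) on log2(normalised count + 1), 1 mean per group over all groups of a table, two-sided, Benjamini-Hochberg within each comparison. Alternatives were a pseudocount of 5, a mean of at least 50, no filter, TMM scaling, edgeR 4.0.16, DESeq2 1.42.0, only the compared groups, a replicate block, days by title number, and leaving out each library. On simulated data the limma test recovered 57% of 4-fold and 12% of 2-fold changes in the depodded comparison of day 76 (29208 genes), and 71% and 14% in the sterile one of day 63 (29370 genes). The simulation changed 100 genes at each fold, while 13537 and 14767 genes were called in the data. Since the adjusted p depends on how many genes change, these rates do not give the recovery in the real comparisons. No replicate pair was within sampling noise (lowest chi-square per degree of freedom 3.15). Nothing in the labels says that a group's libraries are of different plants; the p-values then measure only spread among libraries, possibly technical. The members and lists were chosen with earlier results of these data known. Named genes are the members and, for the member of the highest mean per chromosome, the 2 other tested genes with the highest r. All columns were mapped to a sample.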

Additional observations from a re-analysis of the deposited data

Results flagged for a closer look

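For each of the 5 lipoxygenase genes the effect of sink limitation differed between a late and an early day of the same line, by the limma test of that difference over all genes. Of all genes tested, 17% had a more positive depodding effect on the late day and 15.1% a more positive sterility effect. The depodding difference of Glyma.15G026400 lost its call without control replicate 3 of day 45, control replicate 3 of day 76 or depodded replicate 1 of day 45. On the log2 scale, the depodding effect at the label of day 76 minus that at day 45 was 8.79 for Glyma.07G006900, 4.36 for Glyma.15G026400, 3.78 for Glyma.15G026500, 2.71 for Glyma.13G347700 and 2.58 for Glyma.07G007000. The sterility effect at day 63 minus that at day 35 was 8.03 for Glyma.07G006900, 6.49 for Glyma.15G026400, 5.51 for Glyma.13G347700, 5.4 for Glyma.07G007000 and 4.94 for Glyma.15G026500.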

How the results depend on the processing

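The number of the 5 genes called was recomputed for 13 comparisons under each alternative, and 219 of 223 values stayed within 1.5 times the main count. With days by title number, 1 gene in place of 5 was called for depodding at day 64; the cause was not tested. With only the compared groups, 1 gene in place of 0 was called at day 54. Leaving out each library gave 2 to 5 genes for depodding at the label of day 64, 4 to 5 for the difference between depodding effects and 2 to 4 for sterile against initial leaves; it moved no count of the other 10 comparisons. Of 1115 recomputed log2 changes of single genes, 1089 kept their side of the threshold, and 0 of those called in either fit reversed. Direction was not checked for changes uncalled in both fits, and some of these switched sign. An example was Glyma.07G006900 at day 45, at -0.34 in the main fit and up to 0.07 in an alternative. Over all genes, edgeR on the recovered counts called 13677 at the label of day 76 (limma 13537) and 15025 in sterile leaves of day 63 (limma 14767). Early counts moved more: at days 45, 54 and 35 limma called 3, 257 and 52 genes, DESeq2 130, 1375 and 826, and limma with only the compared groups 0, 2096 and 1119. By title number limma called 3800 in place of 10445 at the controls of day 64 and 8265 in place of 13537 at those of day 76. With only the compared groups limma called 7839 in place of 12790 genes in late Williams 82 controls against initial leaves, 5265 in place of 9069 and 7932 in place of 12213 in depodded leaves labelled day 64 and day 76 against initial leaves, and 5904 in place of 9974 in sterile against initial leaves. Scaling by library totals (edgeR without TMM, chosen after seeing the data) was set against edgeR with TMM. The median of all genes was 0.52 with totals and 0.04 with TMM in late Williams 82 controls, and 0.71 and 0.05 in sterile leaves of day 63, each against initial leaves. With totals edgeR called 10901 genes higher and 4938 lower in the first of these (with TMM 5765 and 6944), 13067 and 2353 in the other (with TMM 4703 and 5015), and 8730 and 4827 in sterile against control leaves of day 63 (with TMM 8236 and 6789). The number of the 5 genes called with totals was that of limma in each of the 13 comparisons. The replicate numbers did not pair the libraries: over 18 same-numbered pairs r ran from -0.186 to 0.248, and in 0 of 6 comparisons were all above 0.1. Of the 18 sink-limited libraries, 5 correlated best with the control of their own number. Sterile replicates 1, 2 and 3 of day 63 were among these, with r of 0.018, 0.1 and 0.148. With the replicate block the number of the 5 genes called stayed the same except for sterile against initial leaves, with 4 in place of 3, as Glyma.15G026400 was called (log2 change 2.15, adjusted p 0.038, within a range of 0.00023 to 0.51 over its alternatives). Changes can go uncalled at n = 3, and the depth limits the ratios of Glyma.15G026400, whose late controls held 16 counts in Williams 82 and 28 in T295H. Depth also limits those of Glyma.07G006900. Its controls of the last day held 40, 1174 and 8 counts in Williams 82 and 128 in all in T295H.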
